A study of Saccharomyces cerevisiae with 6 samples.

Results

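The H3K4me3 peaks of 10 budding yeast chaperone genes were examined in *jhd2∆* and WT cells. The genes were chosen by name: the cytosolic Hsp70 genes *SSA1* (YAL005C), *SSA2* (YLL024C), *SSA3* (YBL075C) and *SSA4* (YER103W), the ribosome-associated Hsp70 genes *SSB1* (YDL229W) and *SSB2* (YNL209W), the Hsp90 genes *HSP82* (YPL240C) and *HSC82* (YMR186W), the disaggregase gene *HSP104* (YLL026W) and the small heat-shock protein gene *HSP26* (YBR072W). Of the 4970 genes named in either deposited peak list, 8 are among these 10, and these 8 are listed in both libraries. *SSA3* and *SSA4* are listed in neither.

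Haploid cells labelled BY4742, mating type a, were compared as a *JHD2* deletion strain (*jhd2∆*) and its wild type (WT). The study lists both strains as prototrophic. Its strain table reads MATα for both, which differs from the mating type in the labels, and the difference was not resolved. Both strains were grown in YAR, a synthetic medium with raffinose as carbon source and ammonium as nitrogen source, to an O.D. of 0.5, and fixed with formaldehyde. The labels name no heat treatment. The antibody Ab8580 against H3K4me3 was used on 1 culture of each genotype, and the pan-H3 and whole cell lysate libraries among the 6 samples were not analysed here.

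Hsp70 proteins bind and release unfolded stretches of other proteins, Hsp90 acts later on folded or nearly folded clients, Hsp104 pulls proteins out of aggregates together with Hsp70, and Hsp26 binds unfolding proteins without ATP. Yeast keeps several copies of these genes that differ in when they are used. *SSA2*, *SSB1*, *SSB2* and *HSC82* are transcribed in growing cells without stress and are called constitutive here, while *SSA3*, *SSA4*, *SSA1*, *HSP82*, *HSP104* and *HSP26* are raised by heat and are called heat-induced. *SSA1* and *HSP82* are also transcribed without stress. The heat response is driven by Hsf1 and by Msn2 and Msn4. H3K4me3 is written by Set1 over the first part of transcribed genes and is removed by the demethylase Jhd2.

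For every peak the lists hold a start, an end, the breadth (in bp) and the pileup, which is the height of stacked reads. The *jhd2∆* list holds 4713 peaks at 4868 genes and the WT list 4452 peaks at 4628 genes. The deleted gene itself, *JHD2* (YJR119C), had no peak in the *jhd2∆* list and a peak of 503 bp on chromosome X in the WT list, from 646053 to 646555. The labels give about 14000000 reads of 51 bp for each sample, and the lists carry no read totals. With 1 library per genotype there is no replicate error and no test of genotype, so each value is set beside the 4526 genes with a peak in both lists. Genes are not replicates. A list's pileups were compared only by rank within that list, because their scaling between libraries is not stated.

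The paralogue pairs *SSA1* and *SSA2*, *SSB1* and *SSB2*, and *HSP82* and *HSC82* have near-identical coding sequences. Reads that match both copies could have been placed on either one, so values within each pair are uncertain, and the number of such reads was not tested.

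The absent genes were *SSA3* and *SSA4*, the heat-induced cytosolic Hsp70 genes other than *SSA1*, which was listed in both libraries. That is 2 of 10 genes, beside 20.4% of 6021 protein-coding genes of the RefSeq table that were listed in neither library, so the share itself was close to the background. *SSA3* lies between *ILS1* and *AAR2* on chromosome II. The *ILS1* peak ended at 84326 and the *AAR2* peak began at 87289 in *jhd2∆*, against 84340 and 87342 in WT. No listed peak fell in these gaps of 2962 bp in *jhd2∆* and 3001 bp in WT. The authors' peak numbers run in order of position in all 4697 intervals of the *jhd2∆* list and all 4436 of the WT list, and no number was skipped between *ILS1* and *AAR2* in either. Thus the original calls held no peak in the interval around *SSA3*. Among gaps of 2500 to 3500 bp, 74.3% of 452 in *jhd2∆* and 72.8% of 441 in WT also skipped no number.

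*SSA4* differed in this respect. It lies on chromosome V between *RPS8B*, whose peak ended at 363676 in *jhd2∆* and 363667 in WT, and *RTT105*, whose peak began at 366766 in *jhd2∆* and 366754 in WT. In both libraries exactly 1 peak number was skipped in this interval, so each original call held 1 peak there that was given to no gene. The lists do not say where in the interval of 3089 bp in *jhd2∆* and 3086 bp in WT it lay, or how high it was. Among gaps of 2500 to 3500 bp, 74.3% of 452 in *jhd2∆* and 72.8% of 441 in WT skipped no number, as given above. The lowest listed pileup was 157 in *jhd2∆* and 166 in WT, and signal too low to be called a peak does not appear in the lists.

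The 4 constitutive genes had some of the highest pileups of either library. *SSA2*, which encodes a major cytosolic Hsp70, had a pileup of 321 in *jhd2∆*, higher than 97.9% of genes in that list, against 337 in WT, higher than 94.2%. *SSB1*, whose product binds nascent chains at the ribosome, had 315 in *jhd2∆* (above 96.4% of genes) and 333 in WT (above 91.6%). Its copy *SSB2* had 320 in *jhd2∆* (above 97.8%) and 352 in WT (above 98.8%). *HSC82*, the constitutive Hsp90 gene, had 310 in *jhd2∆* (above 94.2%) and 341 in WT (above 95.8%). All 4 stood above 91.6% or more of the genes of either list.

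The listed heat-induced genes were spread over the ranking below the constitutive ones. *HSP82*, the heat-induced Hsp90 copy, stood highest with 293 in *jhd2∆* (above 80.5% of genes) and 315 in WT (above 70.6%). *HSP104* had 276 in *jhd2∆* (above 55.3%) and 302 in WT (above 50.3%), and *SSA1* had 271 in *jhd2∆* (above 46.4%) and 304 in WT (above 53.3%). *HSP104* and *SSA1* thus lay close to the list medians of 272 in *jhd2∆* and 301 in WT, and *HSP82* lay above them. *HSP26* was near the bottom with 203 in *jhd2∆* (above 1.85% of genes) and 230 in WT (above 4.15%). The median percentile of the listed heat-induced genes was 50.8 in *jhd2∆* and 51.8 in WT, against 97.1 in *jhd2∆* and 95.0 in WT for the constitutive genes (n = 4 each). The ranges did not overlap in either library. The classes were chosen with earlier results of these data known, so this separation only describes the listed genes and is not a test of the classes. It also depends on the labels, since *SSA1* and *HSP82* are transcribed without stress too. Counting *SSA1* as constitutive would make the ranges overlap.

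**Figure D1:**
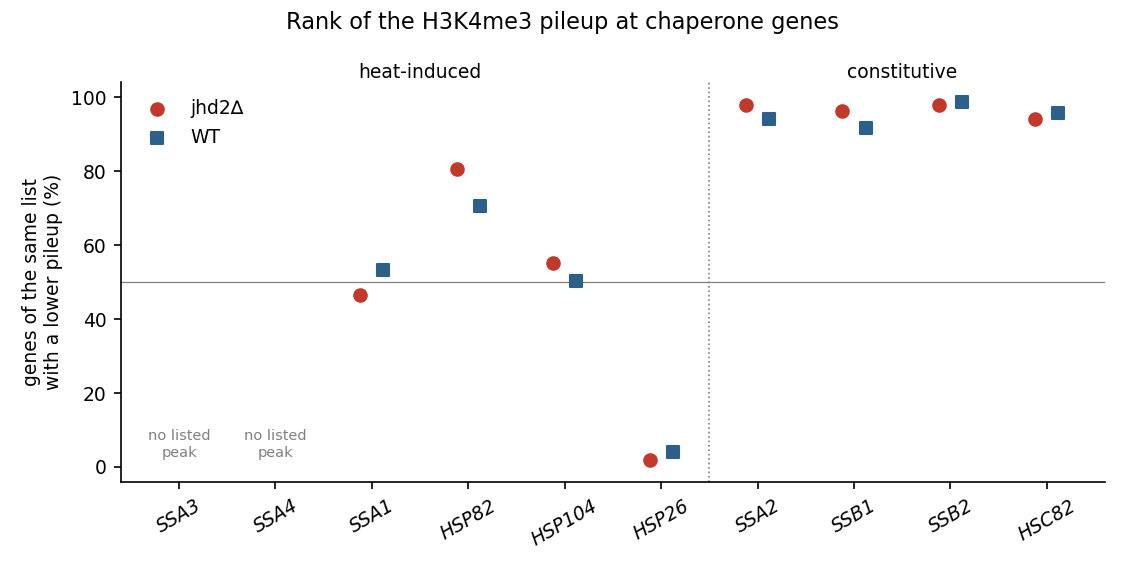
Percentage of genes of the same list with a lower H3K4me3 pileup (y axis) for each chaperone gene, in *jhd2∆* (circles) and WT (squares), with 1 library per genotype and no error bars. The 4 constitutive genes lie above 91% in both libraries, the listed heat-induced genes lie between 1.85% and 80.5%, and *SSA3* and *SSA4* have no listed peak.

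Breadth followed the ranking less closely. The peaks of 7 of the 8 listed genes were broader than 82.0% or more of the genes in the WT list, and the exception was *HSP26*. *SSB1* had the broadest peak of the group in both libraries, 1140 bp in *jhd2∆* and 1054 bp in WT, and *SSB2* followed in *jhd2∆* with 1103 bp, against 1000 bp in WT. *HSC82* had 989 bp in *jhd2∆* and 1013 bp in WT, and *SSA2* had 923 bp in *jhd2∆* and 860 bp in WT. Among the heat-induced genes, *SSA1* had 932 bp in *jhd2∆* and 834 bp in WT, *HSP82* 910 bp in *jhd2∆* and 834 bp in WT, and *HSP104* 923 bp in *jhd2∆* and 885 bp in WT. Thus *SSA1* and *HSP104*, whose pileups were near the median, were close to *SSA2* in breadth, and *SSA1* minus *SSA2* came to 9 bp in *jhd2∆* and -26 bp in WT. *HSP26* had the narrowest, 538 bp in *jhd2∆* and 604 bp in WT, and it is also the shortest gene, with 644 bp in the authors' list. Its peak breadth came to 83.5% of the gene length in *jhd2∆* and 93.8% in WT, whereas at *HSP104*, the longest gene with 2726 bp, it came to 33.9% in *jhd2∆* and 32.5% in WT. Part of a peak can lie upstream of its gene, so these ratios are not coverage of the gene.

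**Figure D2:**
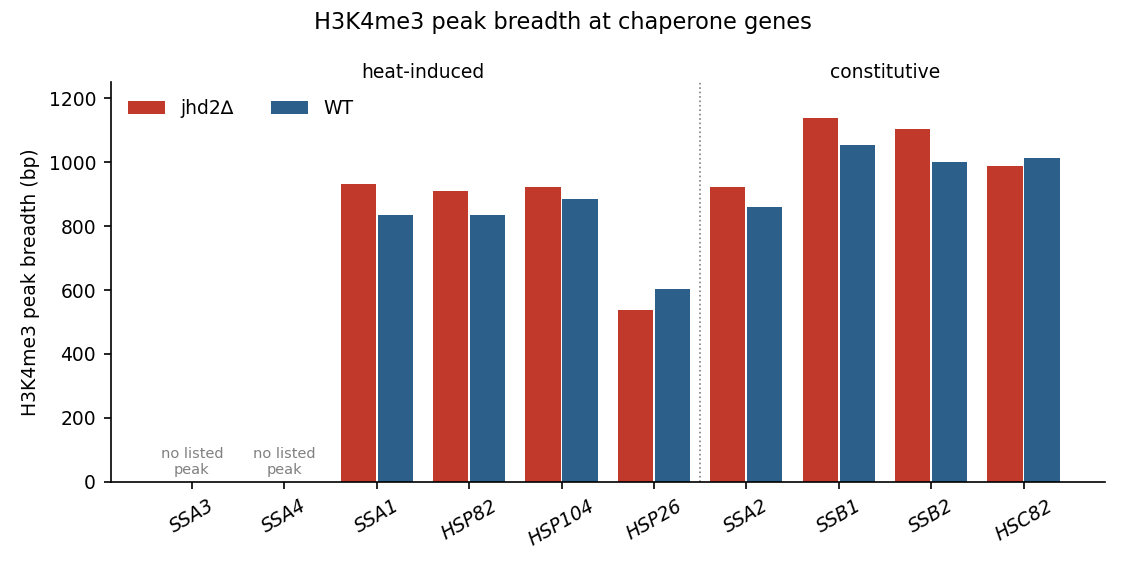
H3K4me3 peak breadth in bp (y axis, from 0) at each chaperone gene in *jhd2∆* (left bar) and WT (right bar), with 1 library per genotype and no error bars. Bars run from 538 bp at *HSP26* to 1140 bp at *SSB1*, both in *jhd2∆*, and *HSP26* and *HSC82* are the only genes with a shorter bar in *jhd2∆*.

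The peak was wider in *jhd2∆* at 6 of the 8 listed genes, beside 63.2% of all 4526 genes, and narrower at *HSC82* and *HSP26*, beside 35.9% of all genes. The differences of *jhd2∆* minus WT were 103 bp at *SSB2*, 98 bp at *SSA1*, 86 bp at *SSB1*, 76 bp at *HSP82*, 63 bp at *SSA2*, 38 bp at *HSP104*, -24 bp at *HSC82* and -66 bp at *HSP26*. Their median was 69.5 bp, beside 17 bp over all genes. A difference of more than 100 bp was reached by *SSB2* alone, 1 of 8 genes (12.5%), beside 14.2% of all genes, and no gene was narrower by more than 100 bp, beside 1.30%. With a limit of 50 bp, 5 of 8 genes (62.5%) were wider, beside 29.1% of all genes, and *HSP26* was narrower, beside 5.86%. The group's differences were thus mostly of moderate size, and only *HSP26* and *HSC82* lay below the median of all genes. The difference at *HSP26* was larger than that of only 3.45% of genes. The paper proposes that normalization without a spike-in hid a genome-wide gain of H3K4me3, which breadth reflects only in part. By PCR of precipitated DNA it found more H3K4me3 in *jhd2∆* at genes picked for lacking a breadth change. A narrower or unchanged peak is therefore not a measure of less or unchanged methylation.

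Both edges of each peak were compared after orienting them by the strand in the systematic name. The upstream edge lay further in, toward the gene, at 8 of 8 genes in *jhd2∆*, beside 80.6% of the 4521 oriented genes. The downstream edge reached further into the gene at 6 of 8, beside 77.4%. Neither count stands far from its background, and the group differed mainly in the size of the downstream shift, with a median of 86.5 bp beside 29 bp over all genes. The median upstream shift was -18 bp, where a negative value means further in, beside -13 bp over all genes.

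The *SSA1* peak, which lies on chromosome I, moved at both ends. It ran from 140592 to 141523 in *jhd2∆*, against 140759 to 141592 in WT. As *SSA1* is on the Crick strand, its upstream edge lay 69 bp further in, a shift lower than that of all but 1.73% of genes, and its downstream edge 167 bp further into the gene, above that of 94.3%. The *jhd2∆* peak therefore shared 82.1% of its bases with the WT peak, the lowest share in the group. The peak of *SSA1* is also the only one in the group that was assigned to a further gene, YAL004W, in both lists. *SSA2*, also on the Crick strand, ran from 96592 to 97514 of chromosome XII in *jhd2∆*, against 96681 to 97540 in WT, which gives shifts of -26 bp upstream and 89 bp downstream.

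The *SSB1* and *SSB2* peaks moved in much the same manner. *SSB1* ran from 44005 to 45144 of chromosome IV in *jhd2∆*, against 43989 to 45042 in WT, and *SSB2* ran from 252036 to 253138 of chromosome XIV in *jhd2∆*, against 252013 to 253012 in WT. The upstream shifts were -16 bp at *SSB1* and -23 bp at *SSB2*, and the downstream shifts were 102 bp at *SSB1* and 126 bp at *SSB2*, above those of 84.5% of genes at *SSB1* and 89.2% at *SSB2*.

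The Hsp90 copies differed at the downstream edge. *HSP82*, on chromosome XVI, ran from 97818 to 98727 in *jhd2∆*, against 97902 to 98735 in WT, with the downstream edge 84 bp further into the gene and the upstream edge 8 bp further in. *HSC82*, on chromosome XIII, ran from 632291 to 633279 in *jhd2∆*, against 632271 to 633283 in WT. Its downstream edge shifted by only -4 bp, above 18.1% of genes, and most of its narrowing came from the upstream edge, with a shift of -20 bp. The difference between genotypes was 100 bp larger at *HSP82* than at *HSC82*, but the *HSP82* peak was the narrower of the pair in both libraries, with a breadth of *HSP82* minus *HSC82* of -79 bp in *jhd2∆* and -179 bp in WT.

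*HSP104* ran from 88444 to 89366 of chromosome XII in *jhd2∆*, against 88432 to 89316 in WT, with shifts of -12 bp upstream and 50 bp downstream. At *HSP26*, on chromosome II, the peak ran from 381987 to 382524 in *jhd2∆*, against 381986 to 382589 in WT. Its upstream edge was almost in place, with a shift of -1 bp, and its downstream edge lay 65 bp less far into the gene, a shift lower than that of all but 0.929% of genes. *HSP26* was thus the one gene of the group whose peak shortened mainly at its far end. Its pileup was above only 1.85% of genes in *jhd2∆* and 4.15% in WT. How far the edges of so low a peak depend on the peak calling was not tested.

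**Figure D3:**
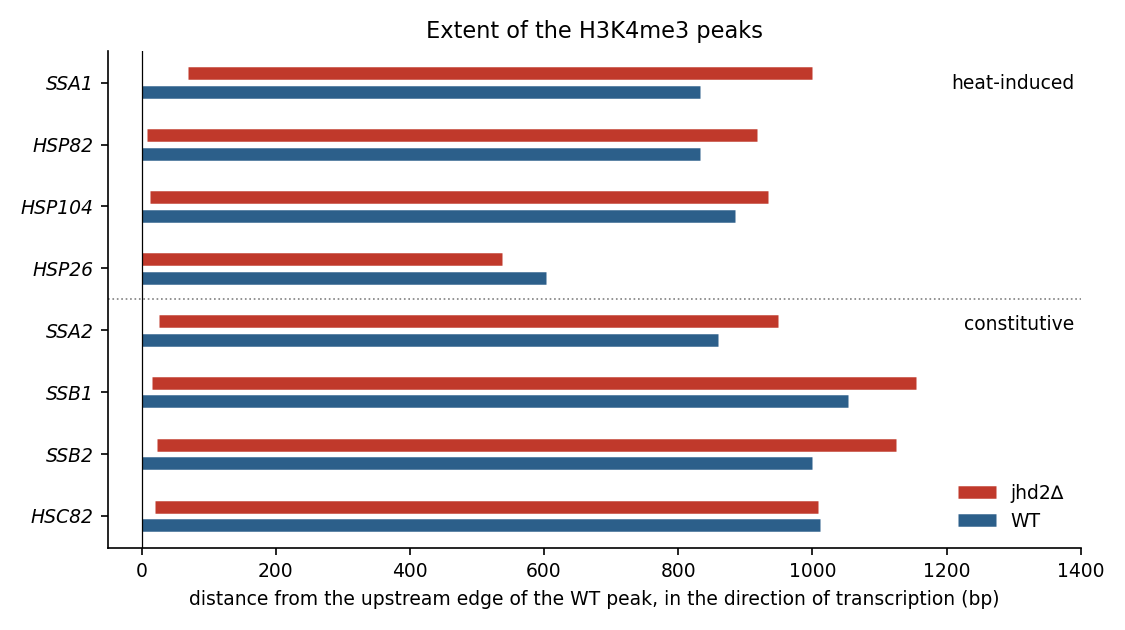
Extent of each H3K4me3 peak in *jhd2∆* (upper line) and WT (lower line), as distance in bp from the upstream edge of the WT peak in the direction of transcription (x axis), with 1 library per genotype. Lines of *jhd2∆* start to the right of the WT line at all 8 genes, by 1 to 69 bp, and end to the right of it at all but *HSC82* and *HSP26*.

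Constitutive and heat-induced genes were less distinct in these differences than in pileup rank. The median breadth difference was 57 bp over the heat-induced genes (range -66 to 98 bp) and 74.5 bp over the constitutive genes (range -24 to 103 bp). The median downstream shift was 67 bp over the heat-induced genes (-65 to 167 bp) and 95.5 bp over the constitutive genes (-4 to 126 bp), and the median upstream shift was -10 bp over the heat-induced genes (-69 to -1 bp) and -21.5 bp over the constitutive genes (-26 to -16 bp). All of these ranges overlapped, and each class had 1 gene with a narrower peak.

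Over the whole list the median breadth difference was smaller at higher pileup, so the genes were also set beside others of like pileup in 5 bins of about 20% of the genes each. Among the 890 genes in the highest bin by WT pileup, which includes all 4 constitutive genes, the median difference was -2 bp and 18.3% were wider by more than 50 bp. *SSA2*, *SSB1* and *SSB2* each passed 50 bp, with differences above those of 86.3%, 90.1% and 93.3% of that bin. *HSC82*, with a difference above 22.9% of it, did not. *SSA1* and *HSP104* fell in the middle bin of 897 genes, where the median was 15 bp, and their differences were above 88.5% and 67.2% of it. *HSP82* fell in the second highest bin, with a median of 10 bp over 942 genes, and its difference was above 86.5% of them. *HSP26* fell in the lowest bin, where the median over 892 genes was 45 bp, the largest of the bins, and its -66 bp was above only 3.81% of them. Beside the 902 genes in the lowest bin by gene length, where the median was -8 bp, it was above 3.99%. *SSA1*, *SSA2*, *SSB1*, *SSB2*, *HSP82* and *HSC82* fell in the second highest bin by gene length, of 903 genes. Its median breadth difference was 29 bp and its median downstream shift 44 bp. Their breadth differences were above 81.9%, 69.8%, 78.4%, 83.3%, 75.4% and 12.7% of that bin. *HSP104* fell in the highest bin by gene length, with a median of 20 bp over 905 genes, and was above 62.7% of it.

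**Figure D4:**
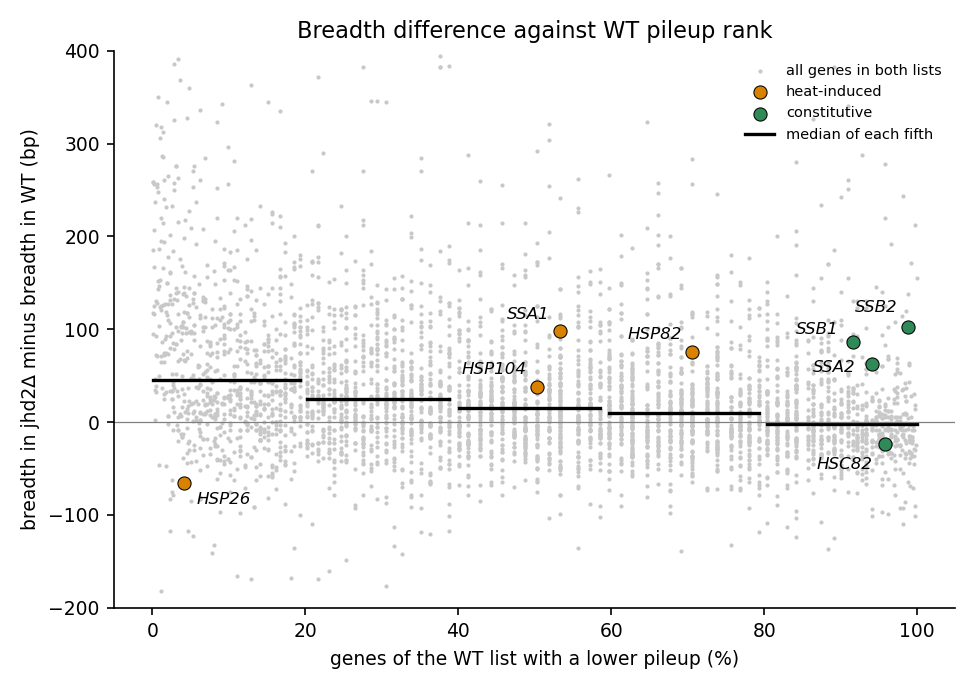
Breadth in *jhd2∆* minus breadth in WT, in bp (y axis), against the percentage of WT genes with a lower pileup (x axis), for all genes in both lists (grey, 55 genes outside the axis limits not shown), with the median of each 20% bin by WT pileup as black lines. *SSA1*, *HSP82*, *HSP104*, *SSA2*, *SSB1* and *SSB2* lie above the line of their bin, and *HSC82* and *HSP26* lie below it.

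The neighbouring listed peaks were mostly the same genes in both libraries. *SSA1* stands between *ERP2* and *EFB1*, a translation elongation factor gene. The *EFB1* pileup of 352 in *jhd2∆* and 359 in WT was above 99.9% and 99.6% of genes. The gap between the *SSA1* and *EFB1* peaks was 615 bp in *jhd2∆* and 539 bp in WT. The *HSP104* and *SSA2* peaks are successive entries of both lists, 7225 bp apart in *jhd2∆* and 7364 bp apart in WT, and 2 peak numbers were skipped between them in each. *ISA1*, on the other side of *HSP104*, ended 312 bp before its peak in both libraries. *HSP82* lies between *CIN2* and *YAR1*, *HSC82* between *RTP1* and YMR187C, *SSB1* between *PTP1* and *GCS1*, *SSB2* between *VID27* and YNL208W, and *SSA2* has *POM33* on its other side, in both lists. *HSP26* was the exception, with YBR071W before it in *jhd2∆* and *TIP1* before it in WT, and *RDH54* after it in both.

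A wider list of 46 chaperone, co-chaperone and heat-shock regulator genes was described in the same way. Of these, 38 were listed in both libraries, 1 only in *jhd2∆*, 1 only in WT and 6 (13.0%) in neither, beside 20.4% of protein-coding genes. Peaks of 7 of the 38 (18.4%) were wider in *jhd2∆* by more than 100 bp, beside 14.2% of all genes, and 1 (2.63%) was narrower, beside 1.30%. The median difference was 22 bp, beside 17 bp over all genes. The wider list therefore lay near the background. At the Hsp40 gene *APJ1* the peaks of the libraries did not overlap. They ran from 481682 to 482016 in *jhd2∆* and from 481278 to 481532 in WT. Its difference of 80 bp therefore compares separate peaks.

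Among the regulators, *HSF1*, the heat-shock transcription factor, had a peak of 806 bp in *jhd2∆* and 805 bp in WT. Of the stress-response activator genes, *MSN4* had 771 bp in *jhd2∆* and 655 bp in WT, a difference of 116 bp, and *MSN2* was listed in neither library. The other 6 genes wider by more than 100 bp were *HSP150*, which encodes a cell wall protein (193 bp), the Hsp40 gene *XDJ1* (159 bp), the mitochondrial Hsp40 gene *MDJ1* (159 bp), *HSP30*, which encodes a plasma membrane protein (149 bp), *SCJ1*, an Hsp40 gene of the endoplasmic reticulum (117 bp), and *SSQ1*, a mitochondrial Hsp70 gene (105 bp). The narrower one was *AHA1*, which encodes an activator of the Hsp90 ATPase, with 866 bp in *jhd2∆* and 974 bp in WT. The 9 Hsp90 co-chaperone genes listed in both libraries had a median difference of -8 bp, with 4 wider and 5 narrower in *jhd2∆*, beside 63.2% and 35.9% of all genes.

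Absent from both lists besides *MSN2* were the stress-induced *HSP31*, the mitochondrial Hsp70 gene *ECM10*, the exchange factor genes *SNL1* and *SIL1*, and *SWA2*, which encodes an auxilin-like J-protein. Around each of these 6 genes, at least 1 peak number between the listed neighbours was given to no gene in both libraries. Over all intervals, 14.3% of 4697 in *jhd2∆* and 16.3% of 4436 in WT skipped a number. The gaps around the 6 genes were 2066 bp or longer, against median gaps of 1164 bp in *jhd2∆* and 1253.5 bp in WT. Gaps of like length were not compared for all 6, so the count is not a result about these genes. *CPR6*, an Hsp90 co-chaperone gene, was listed with a peak of 730 bp only in *jhd2∆*, and *HSP10*, the mitochondrial co-chaperonin gene, was listed with a peak of 514 bp and a pileup of 331 (above 90.1% of genes) only in WT. In the library that does not list the gene, 1 peak number was skipped between its listed neighbours, for *HSP10* in *jhd2∆* and for *CPR6* in WT, so each of these calls held 1 peak without a gene somewhere in that interval, of 6512 bp around *HSP10* and 4840 bp around *CPR6*. The highest WT pileups of the wider list were 351 at the polyubiquitin gene *UBI4* and 337 at both *SSE1* and *SSC1*. *SSE1* is an Hsp110 gene and *SSC1* the main mitochondrial Hsp70 gene. These pileups were above 98.6%, 94.2% and 94.2% of genes in the WT list. In *jhd2∆* the same genes had 314, 309 and 309, above 96.1%, 93.7% and 93.7% of that list. The lowest in WT were 247 at *JEM1*, 250 at *HSP30* and 252 at *BTN2*, above 7.54% to 8.86% of the genes in the WT list. Their pileups in *jhd2∆* were 235, 239 and 254, above 8.67%, 10.8% and 22.6% of that list.

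**Figure D5:**
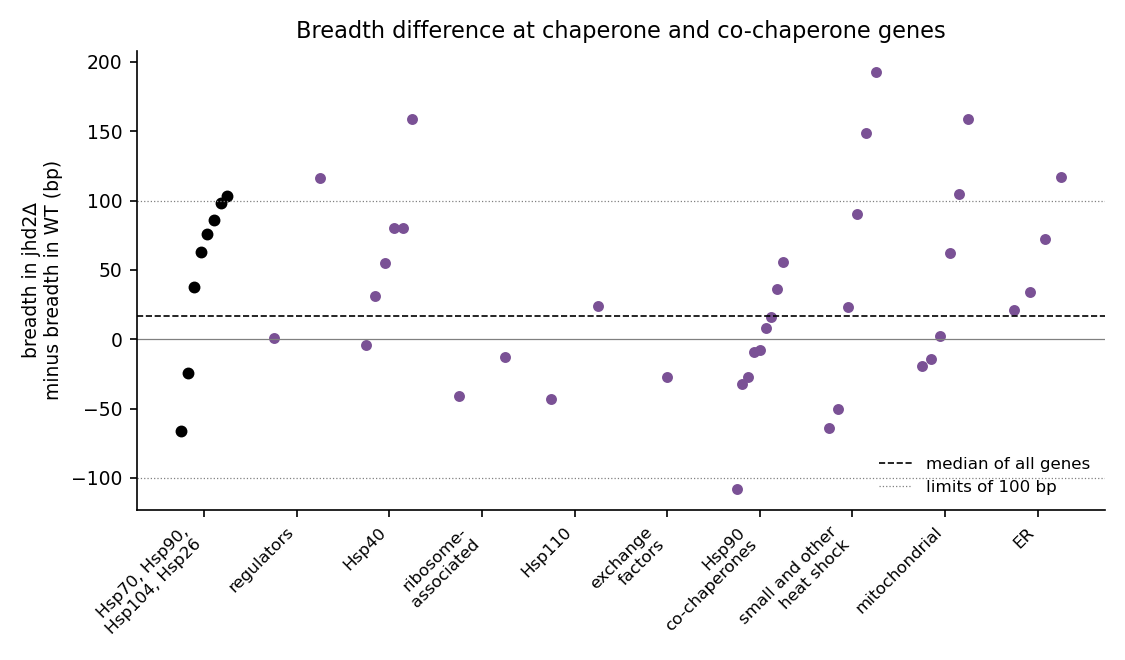
Breadth in *jhd2∆* minus breadth in WT, in bp (y axis), for the 8 listed Hsp70, Hsp90, Hsp104 and Hsp26 genes (black) and for 38 further chaperone genes by role (purple), 1 point per gene in order of value, with the median of all genes dashed and the limits of 100 bp dotted. The black points run from -66 to 103 bp, and those of the wider list from -108 to 193 bp. The *APJ1* point, at 80 bp, compares peaks that do not overlap.

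The genes most like *HSP82* in breadth and pileup percentile over both libraries, among 4525 others, were *LYS9* (YNR050C), *APE4* (YHR113W) and *AMD1* (YML035C). Their distances over the 4 percentiles were 3.06, 3.15 and 4.48 percentage points, and their peaks were wider in *jhd2∆* by 108, 64 and 73 bp, beside 76 bp at *HSP82*, a likeness that follows from choosing them by breadth in both libraries.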

How the data were processed

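Per the labels and the study's methods, reads were aligned with Bowtie2 2.2.3 to an iGenomes yeast reference, and the authors called peaks in each library with MACS2, broad option off, and assigned a peak to each gene whose 5′ coding region it overlapped. The genome build and the control library are not given in the sources used here. The authors deposited each peak's position, breadth in bp and pileup signal, and for WT the gene length. In the WT list, 12 empty columns, 4 repeats and 1 ratio of breadth to gene length were not used. Positions are printed as deposited.

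Genes with several peaks were represented by the widest, which touched none of the 8 listed genes, each with 1 peak. A percentile is the share of genes with a lower value. Symbols came from the RefSeq table of assembly R64, which matched 10 of 10 and 46 of 46 names and gave gene order, but no coordinates. The members, classes and lists were chosen with earlier results of these data known. All 10 genes were named, with *JHD2*, the genes that share or flank their peaks, and the 3 genes nearest to *HSP82* by the Euclidean distance of the 4 percentiles. From the wider list those absent, past 100 bp, regulators, and the 3 highest and 3 lowest by WT pileup were named. *APJ1* was added because its peaks do not overlap. Python 3.11.15, numpy 2.4.6, pandas 2.3.3 and matplotlib 3.10.9 were used. The code for edge shifts was checked on WT peaks moved by set amounts, which it returned. That check says nothing about the reported shifts. Alternatives concerned the classes, the choice and filtering of peaks, the percentile and the limit in bp.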

Additional observations from a re-analysis of the deposited data

How the results depend on the processing

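Of 84 values recomputed under alternatives set at the start, 77 stayed within 1.5 times (counts) or within 1 SD over the genes of a class (medians), and none changed sign. The other 7 followed from the limit in bp alone. A limit of 100 bp gave 1 wider and 0 narrower of the 8 listed chaperone genes, a limit of 50 bp gave 5 wider and 1 narrower, and a limit of 200 bp gave 0 wider. Over all genes the limit of 100 bp gave 643 wider and 59 narrower, that of 50 bp 1319 and 265, and that of 200 bp 164 and 21. The SD over the heat-induced genes was wide: their median difference of 57 bp was 38 bp with *SSA1* counted as constitutive, with *HSP82* left out or with peaks of 1 gene only, and 76 bp without low peaks, which removes *HSP26*. Choosing another peak per gene could change no member, since each had 1. The constitutive medians of breadth difference and edge shifts changed only with *SSA1* counted as constitutive. The other alternatives kept the same 4 constitutive genes and peaks, so those medians could not move. An SD over 4 genes is also a loose bound. Counting *SSA1* as constitutive stayed within it, although the pileup ranges of the 2 classes then overlapped. No paired analysis was possible because only 1 H3K4me3 library stands for either genotype, so no replicate could be left out. The number of reads per peak is not in the lists, so depth limits cannot be given.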

Other observations

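The absent Hsp70 copies stand beside a ribosomal protein gene pair with high peaks. *RPS8A* is the second listed gene after *SSA3* on chromosome II and had a pileup of 337 in *jhd2∆* (above 99.6% of genes) and 339 in WT (above 95.0%). *RPS8B* is the gene next to *SSA4* on chromosome V and had 336 in *jhd2∆* (above 99.5%) and 354 in WT (above 99.1%). Their peaks spanned 972 bp in *jhd2∆* and 990 bp in WT at *RPS8A*, and 963 bp in *jhd2∆* and 965 bp in WT at *RPS8B*. These neighbours were chosen after their values were seen.

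Beside *HSP26*, YBR071W and *ALG14* were listed only in *jhd2∆*, with peaks of 884 and 297 bp and pileups of 291 and 185. In the WT list the nearest peak on that side was that of *TIP1*, 9248 bp away, and 1 peak number was skipped between them. These genes were also chosen after their values were seen.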
